A study of Mus musculus with 6 samples.

Results

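Transcripts of 26 Hox, Tbx and Fox genes were compared between endothelial cells (EC) of infant and young adult mouse lungs. The genes were those of the deposited expression table whose symbols name a numbered member of the HoxA to HoxD clusters, of the Tbx family or of the FoxA to FoxS classes. They were 10 Hox, 3 Tbx and 13 Fox genes of 12623 genes in all, and the rule read only the symbols. EC were sorted from lungs of C57BL/6N mice as living CD31+ CD34+ cells that were negative for PTPRC, LYVE1, LY76 and PDPN. The infant group was taken in the second week after birth and the young adult group a few months after birth, no treatment or engineered allele is given for any mouse, and each group had 3 libraries. The design asked which transcripts change while lung EC move from a growing to a resting vasculature.

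Hox genes lie in clusters and encode homeodomain transcription factors that set position along the body axis in the embryo, and adult cells often keep a part of that pattern. T-box factors direct limb, heart and lung formation, and Tbx4 and Tbx5 are known in the lung for their action in the mesenchyme that drives bud growth and branching. Forkhead (Fox) factors range from Foxf1, which is needed for the formation of lung vessels and acts in lung EC and mesenchyme, to Foxo1, which is held out of the nucleus by PI3K-AKT signalling and restrains EC growth when it is active.

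Several properties of the libraries touched all values below. The values were RPKM, read numbers scaled to transcript length and to all mapped reads, rounded by the authors to 1 decimal, and the number of reads behind them is unknown. EC markers summed to 3072 to 4538 RPKM in infant and 4980 to 5392 RPKM in young adult libraries. Of 12, 0 were called lower and 1 higher, and 10 had a positive log2 fold change. At an unadjusted p under 0.05 in limma, 0 were lower and 6 higher, against 25.4% and 15% of all genes tested. 11 of 12 fibroblast markers were called lower in young adult EC, with sums of 349.9 to 1321 RPKM in infant and 13.2 to 28.2 RPKM in young adult libraries. 9 of 10 mural cell markers were called lower as well, with sums of 79.6 to 249.0 RPKM in infant and 12.8 to 18.2 RPKM in young adult libraries, and no marker of either list was at 0 in all young adult libraries. Infant replicate 2 stood apart from the other infant libraries, since its fibroblast sum was 0.309 of their mean and its mural sum 0.324, whereas its EC sum was 1.41 of their mean. Erythroid transcripts, which share the RPKM total with all others, summed to 9656 to 79860 RPKM in infant and 822.2 to 1351 RPKM in young adult libraries, with 7 of 7 called lower. Of the other marker lists, 4 of 10 epithelial and 4 of 8 leukocyte genes were called lower, 1 epithelial gene was called higher, Msln, the 1 mesothelial gene in the table, was called lower, and of 4 lymphatic genes Lyve1, whose protein the sort had excluded, was called higher (68.6 to 171.4 RPKM in infant and 252.9 to 396.4 RPKM in young adult libraries). 4 Y-linked genes had 2.1 to 21.9 RPKM in every infant library and 0 in every young adult library. The infant libraries thus held RNA of male cells, although the study describes its mice as female, and sex and age cannot be told apart.

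All 26 genes reached an RPKM of 1 in at least 1 library, which was the condition for being tested. For 7 of them, Tbx5, Foxf2, Foxp2, Foxs1, Hoxb2, Hoxb3 and Hoxb6, this held only in infant libraries. All young adult values of these 7 were under 1 RPKM. Tbx5, Foxf2, Hoxb6 and Hoxb2, called lower below, are among them, so the counts of lower genes are not independent of this filter. A gene was called when limma gave a Benjamini-Hochberg adjusted p under 0.05 over all 12458 genes tested together with a difference of more than 0.81 on the log2(RPKM + 1) scale, the fold threshold that the study used. By this rule Tbx5, Tbx4, Foxf2, Hoxb6 and Hoxb2 fell in young adult EC, and 0 of the 26 rose. At an unadjusted p under 0.05 with any fold, 10 of the 26 were lower and 0 higher, against 25.4% and 15% of all genes tested. The 5 genes that fell made up 19.2% of the 26, against 8.1% of all genes tested that were called lower, and 3.33% of all genes were called higher. At an adjusted p under 0.05 with any fold, 7 of the 26 (26.9%) passed, against 25.5% of all genes. Infant and young adult values did not overlap for 10 of the 26 (38.5%), against 43.4% of all genes. Taken in either direction, these last shares were close to those of all genes. By direction, all 10 were lower in young adult EC and 0 higher, against 3371 lower and 2041 higher of all 12458 genes. All 7 genes that reached an RPKM of 1 only in infant libraries are among these 10. They are also among the 10 that were lower at an unadjusted p under 0.05. Neither split by direction is therefore independent of the filter, and no trend of these families is read from them. The median log2 fold change, young adult minus infant, was -0.12 over the 26 and -0.07 over all genes tested, and means were lower for 15 and higher for 11 of the 26. In sorted cells measured in bulk, a lower value from fewer cells of a type and one from less RNA per cell cannot be told apart.

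**Figure D1:**
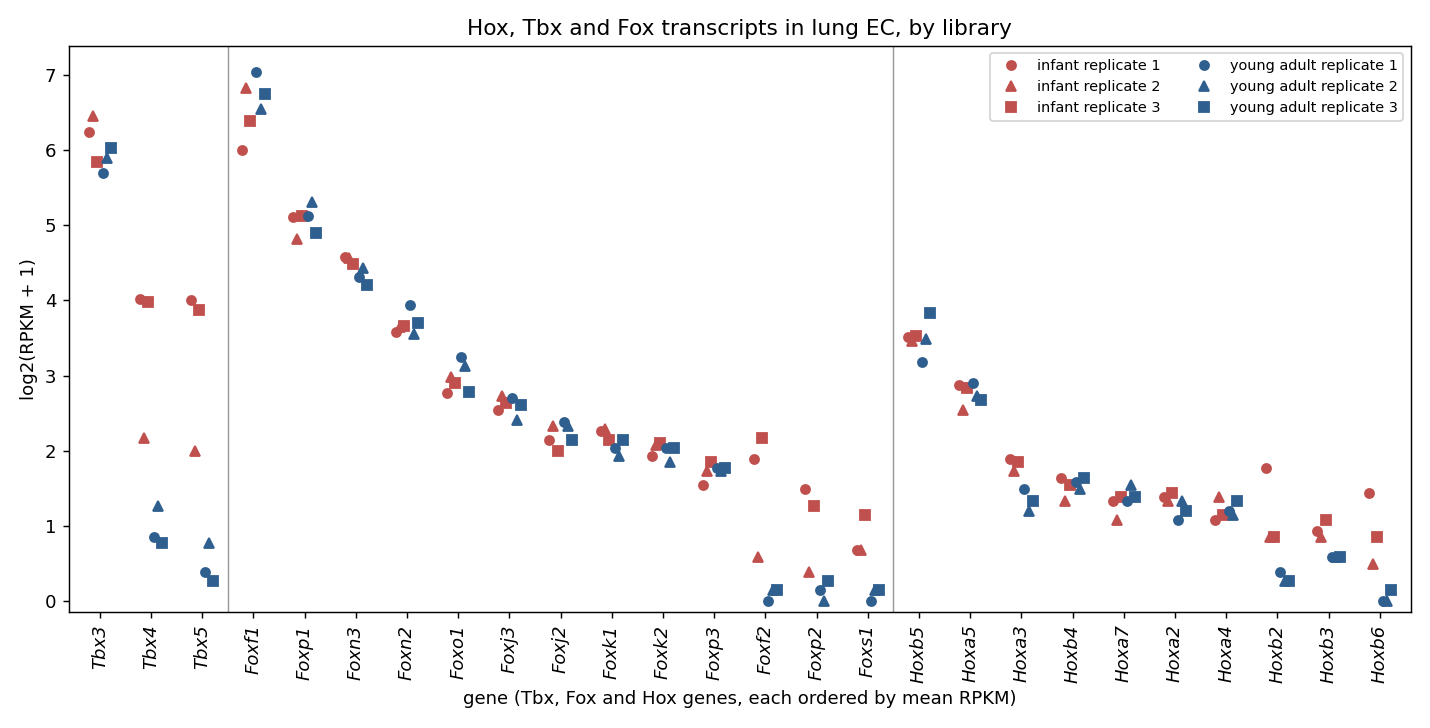
Each point is 1 library, with log2(RPKM + 1) on the y axis and the 26 genes on the x axis, split into Tbx, Fox and Hox genes and ordered by mean RPKM within each family. Infant libraries are red and young adult libraries blue, and the shape gives the replicate. Tbx4 and Tbx5 separate by age while Tbx3 does not, and infant replicate 2 (red triangle) lies between the other infant libraries and the young adult libraries for Tbx4, Tbx5, Foxf2 and Foxp2.

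**Figure D2:**
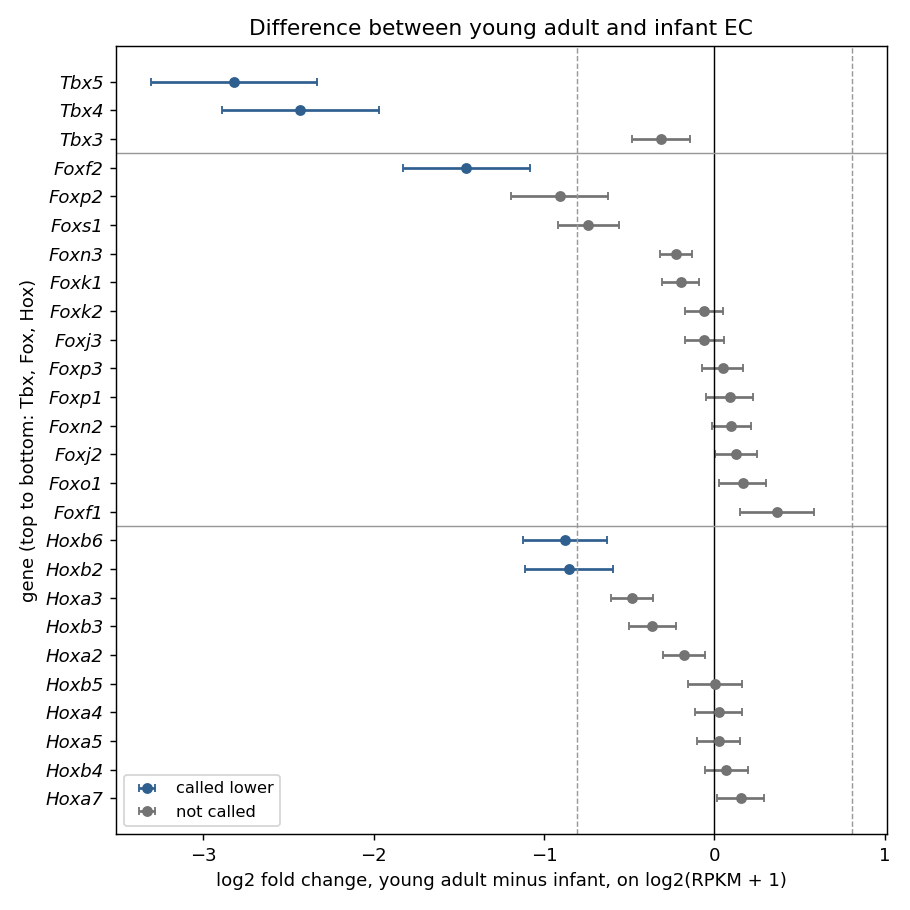
Log2 fold change of each gene, young adult minus infant, on the log2(RPKM + 1) scale (x axis) with its standard error from limma (bars), for 3 against 3 libraries. Dashed lines mark the threshold of 0.81 in either direction, and the 5 genes called lower are blue. Most Fox and Hox genes lie near 0 and no gene lies beyond the line on the right.

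Of the T-box genes, Tbx5 (chr5:119796514-119885220, plus strand, GRCm38.p6) had the largest difference of the 26. Listed in the order of the replicate numbers, as for all genes below, its RPKM was 15.0, 3.0 and 13.6 at infant age against 0.3, 0.7 and 0.2 at young adult age. The groups did not overlap, and infant replicate 2 was far below the other infant libraries. The log2 fold change was -2.82 ± 0.49 (SE, adjusted p 0.00799), and the young adult mean was 0.0380 of the infant mean (0.40 ± 0.26 against 10.5 ± 6.56 RPKM, SD, n = 3 each).

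Tbx4 (chr11:85886367-85916097, plus strand) behaved much like Tbx5, its close relative in lung mesenchyme. It had 15.2, 3.5 and 14.8 RPKM at infant age against 0.8, 1.4 and 0.7 RPKM at young adult age, again without overlap and with infant replicate 2 lowest. The log2 fold change was -2.43 ± 0.46 (adjusted p 0.0110), and the ratio of means was 0.0866. No exon of another gene overlapped the exons of Tbx4 or Tbx5 in the annotation.

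Tbx3, which lies next to Tbx5 on chromosome 5, 111790 bases away, and is known as a repressor that keeps cells from senescence, was the most abundant of the 3. Its RPKM was 74.8, 87.1 and 56.6 at infant age against 50.8, 58.4 and 64.4 at young adult age, and the groups overlapped. The log2 fold change of -0.31 ± 0.17 did not pass the test (adjusted p 0.211). Unlike Tbx4 and Tbx5, Tbx3 was highest in infant replicate 2. Within each library, log2(RPKM + 1) of Tbx5 minus that of Tbx3 averaged -2.90 ± 1.36 (SD) at infant age against -5.40 ± 0.33 at young adult age, a difference of -2.51 between ages. For Tbx4 minus Tbx3 the difference was -2.12. These pairs were chosen with the results of the single genes known, and the differences are given as a description.

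For the 2 called genes whose promoters were in the RefSeq promoter table (GRCm38.p6), the 250 bases before a transcription start are shown with those of Hoxa5, which was not called, so that genes that fell can be set beside one that did not pass the test. Letters are 5′ to 3′ on the strand of the gene. Capitals mark a match to 1 of 3 core promoter motifs, each searched on both strands: the TATA box, spelled TATAAA, or the box spelled CCAAT, or the GC box, which is spelled GGGCGG. The Tbx4 window is chr11:85896515-85896764 on the plus strand, at a start that lies inside the gene's full extent, the Foxf2 window is chr13:31625566-31625815 on the plus strand, and the Hoxa5 window is chr6:52204588-52204837 on the minus strand.
Tbx4: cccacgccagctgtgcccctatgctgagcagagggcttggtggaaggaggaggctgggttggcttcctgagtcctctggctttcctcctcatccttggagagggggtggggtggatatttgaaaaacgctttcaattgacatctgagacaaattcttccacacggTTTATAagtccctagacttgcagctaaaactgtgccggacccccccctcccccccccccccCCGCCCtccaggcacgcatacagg
Foxf2: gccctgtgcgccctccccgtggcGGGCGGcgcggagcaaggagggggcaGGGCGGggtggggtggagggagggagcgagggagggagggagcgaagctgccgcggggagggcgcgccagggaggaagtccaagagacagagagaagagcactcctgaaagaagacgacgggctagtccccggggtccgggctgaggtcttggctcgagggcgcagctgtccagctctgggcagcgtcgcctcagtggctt
Hoxa5: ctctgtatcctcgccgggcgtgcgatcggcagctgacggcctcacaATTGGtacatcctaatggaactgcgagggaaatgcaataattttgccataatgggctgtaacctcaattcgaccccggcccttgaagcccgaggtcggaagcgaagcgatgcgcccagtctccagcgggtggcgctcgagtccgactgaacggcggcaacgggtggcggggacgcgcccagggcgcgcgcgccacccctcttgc

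The Tbx4 window held 1 TATA box, read on the opposite strand, and 1 GC box, with 6 CpG dinucleotides and 58.4% G and C. The Foxf2 window had no TATA box, 2 GC boxes and 21 CpG dinucleotides at 71.6% G and C. The Hoxa5 window had 28 CpG dinucleotides and 1 CCAAT box. Over all 32851 promoters of the table, 12.4% held the TATA box, 33.9% the CCAAT box and 32.7% the GC box in the same window. Of the 26 genes, 14 were matched, with 17 promoters, whose median was 14 CpG dinucleotides against 6 over all promoters. The core motifs bound by forkhead (GTAAACA) and T-box (GGTGTGA) factors were found in 0 of the 17, against 3.17% and 3.33% of all promoters, and the homeodomain core TAATTA in 1, a promoter of Foxp1, against 4.84%. At shares this low, 17 promoters are too few to show whether these motifs are rarer here than over all promoters. Promoters were not in the table for Foxf1, Foxk1, Foxn2, Foxp2, Foxs1, Hoxa4, Hoxb2, Hoxb3, Hoxb5, Hoxb6, Tbx3 and Tbx5. A motif match is a description of the letters and not evidence of binding.

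Of the 13 Fox genes, 1 was called (7.69%), a share close to the 8.1% of all genes called lower. Foxf2 (chr13:31625816-31631406, plus strand), a mesenchymal forkhead gene that pericytes of the brain also need, had 2.7, 0.5 and 3.5 RPKM at infant age against 0.0, 0.1 and 0.1 RPKM at young adult age. The groups did not overlap, but infant replicate 2 reached only 0.161 of the mean of the other infant libraries. The log2 fold change was -1.46 ± 0.37 (adjusted p 0.0279), and since the young adult values are at the rounding step of the table, no ratio of means is given for it.

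Foxf1 (chr8:121084386-121088154, plus strand), the paralog of Foxf2, was the most abundant of the 26 genes, with a mean of 98.2 RPKM, against a median of 6.25 RPKM over all genes. Its RPKM was 63.5, 112.4 and 83.2 at infant age against 130.6, 92.7 and 106.8 at young adult age, so that the groups overlapped and the log2 fold change of 0.37 ± 0.22 did not pass the test (adjusted p 0.241). Here infant replicate 2 was the highest infant library, at 1.53 of the mean of the others. Without it the log2 fold change was 0.58 with an adjusted p of 0.0376 and under the fold threshold, whereas it was -0.04 (adjusted p 0.921) with infant replicate 2 as the only infant library, and these adjusted p are the lowest and the highest over all alternatives. The within-library difference of Foxf2 minus Foxf1 on the log2(RPKM + 1) scale differed by -1.83 between young adult and infant EC, again as a description. The strand of the reads was not recorded by the library kit, and the exons of Foxf1 and of Foxf2 each overlap a predicted gene on the opposite strand, from which their reads cannot be told apart. Exons of 14 of the 26 genes overlap another annotated gene in this way or on the same strand, among them Tbx3, Foxo1, Foxp1 and Hoxb5.

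Foxp1, a forkhead repressor that EC and many other cells use, was the second most abundant Fox gene at a mean of 32.7 RPKM. It had 33.7, 27.2 and 33.9 RPKM at infant age against 34.0, 38.6 and 28.8 RPKM at young adult age, with a log2 fold change of 0.09 ± 0.14 (adjusted p 0.658). Foxn3, a repressor linked to cell cycle checkpoints, had 22.9, 22.6 and 21.4 RPKM at infant age against 18.8, 20.6 and 17.5 RPKM at young adult age. The groups of Foxn3 did not overlap, yet the log2 fold change of -0.23 ± 0.10 did not pass the test (adjusted p 0.118). Foxo1 had 5.8, 6.9 and 6.5 RPKM at infant age against 8.5, 7.7 and 5.9 RPKM at young adult age, and the groups overlapped (log2 fold change 0.17 ± 0.14, adjusted p 0.397).

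A pair of low Fox genes came close to the call. Foxs1, a gene known from pericytes, had 0.6, 0.6 and 1.2 RPKM at infant age against 0.0, 0.1 and 0.1 RPKM at young adult age. Its log2 fold change of -0.74 ± 0.18 had an adjusted p of 0.0237 but stayed under the threshold on the log2(RPKM + 1) scale. With a pseudocount of 0.1 the log2 fold change of Foxs1 was -2.44 (adjusted p 0.0196, limma), and it was called. Foxp2, the paralog of Foxp1 that lung epithelium also expresses, had 1.8, 0.3 and 1.4 RPKM at infant age against 0.1, 0.0 and 0.2 RPKM at young adult age. Its log2 fold change of -0.91 ± 0.28 was past the fold threshold with an adjusted p of 0.0508. Both were named after their values were seen. The other Fox genes, Foxn2, Foxj2, Foxj3, Foxk1, Foxk2 and Foxp3, had mean RPKM of 11.9, 3.67, 5.08, 3.40, 3.02 and 2.32 in this order, overlapped between the groups, and had log2 fold changes from -0.20 (Foxk1) to 0.13 (Foxj2). Foxp3, the factor of regulatory T cells, had 1.9 to 2.6 RPKM in all 6 libraries, and its exons overlap those of Ccdc22 and Ppp1r3f on the opposite strand, so that its own level cannot be told apart from theirs.

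The 10 Hox genes belonged to the HoxA cluster on chromosome 6 (Hoxa2, Hoxa3, Hoxa4, Hoxa5 and Hoxa7) and to the HoxB cluster on chromosome 11 (Hoxb2 to Hoxb6), paralog groups 2 to 7. In both clusters the group 5 gene was the most abundant. Hoxb5 had 10.4, 10.0 and 10.5 RPKM at infant age against 8.1, 10.2 and 13.3 RPKM at young adult age, a log2 fold change of 0.01 ± 0.16 (adjusted p 0.986). Hoxa5, which is required for lung development, had 6.3, 4.8 and 6.1 RPKM at infant age against 6.5, 5.6 and 5.4 RPKM at young adult age, a log2 fold change of 0.03 ± 0.12 (adjusted p 0.900). The groups overlapped for both genes. Summed over all 10 Hox genes, RPKM was 24.8 to 30.7 in infant and 23.1 to 27.5 in young adult libraries.

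**Figure D3:**
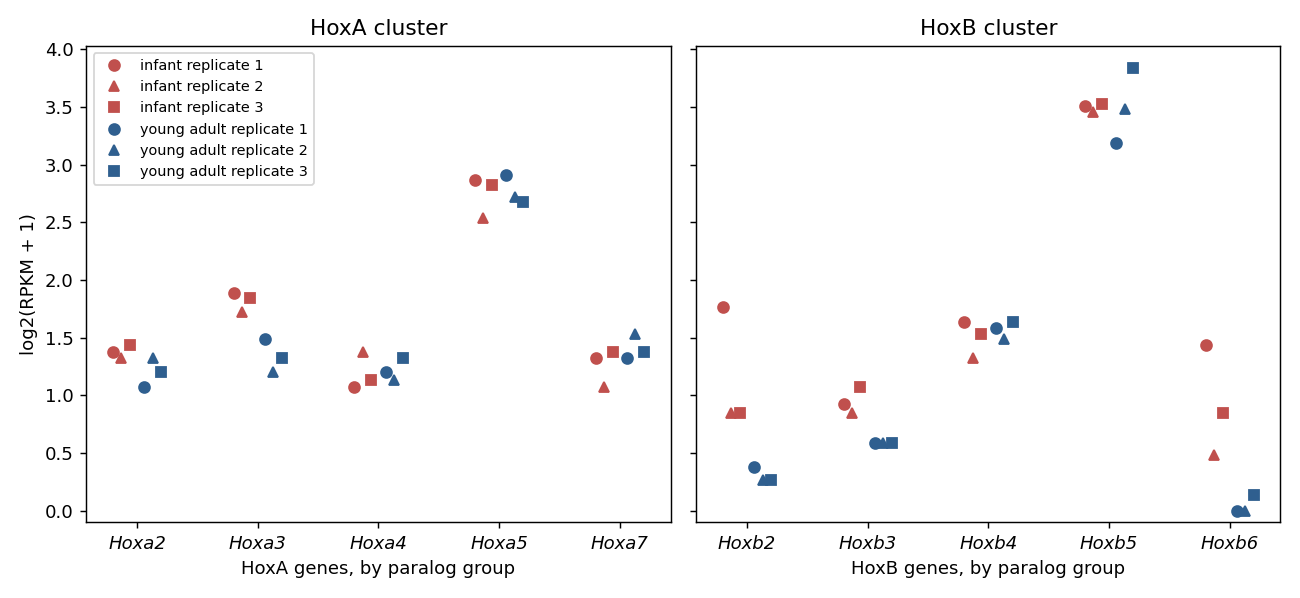
Log2(RPKM + 1) of the HoxA (left) and HoxB (right) genes, ordered by paralog group on the x axis, with 1 point per library, infant red and young adult blue. Hoxa5 and Hoxb5 are the highest of each cluster at both ages, and the young adult points of Hoxb2 and Hoxb6 lie below all infant points.

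Within HoxB, Hoxb2 (chr11:96351632-96354020) and Hoxb6 (chr11:96292814-96301569), both on the plus strand, were called lower. Hoxb2 had 2.4, 0.8 and 0.8 RPKM at infant age against 0.3, 0.2 and 0.2 RPKM at young adult age (log2 fold change -0.85 ± 0.26, adjusted p 0.0454). Hoxb6 had 1.7, 0.4 and 0.8 RPKM at infant age against 0.0, 0.0 and 0.1 RPKM at young adult age (log2 fold change -0.88 ± 0.24, adjusted p 0.0362). Neither gene overlapped between the groups, but both were under 1 RPKM in every young adult library and in infant replicates 2 and 3, where a step of 0.1 is a large part of the value. Hoxb3 had 0.9, 0.8 and 1.1 RPKM in infant and 0.5 RPKM in each young adult library, without overlap, and did not pass the test (log2 fold change -0.36 ± 0.14, adjusted p 0.0864). Exons of Hoxb2 and Hoxb3 overlap Hoxb3os, an antisense gene, and their reads cannot be told apart from it. Hoxb4 averaged 1.90 RPKM with a log2 fold change of 0.07 ± 0.13.

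Within HoxA, limma called 0 of 5 genes, and 1 had an unadjusted p under 0.05. Over all genes, 8.1% were called lower and 3.33% higher, and 25.4% and 15% at an unadjusted p under 0.05. Hoxa3 had 2.7, 2.3 and 2.6 RPKM at infant age against 1.8, 1.3 and 1.5 RPKM at young adult age, without overlap. Its log2 fold change of -0.48 ± 0.12 had an adjusted p of 0.0277 and was under the fold threshold, and antisense genes overlap its exons. Hoxa2, Hoxa4 and Hoxa7 averaged 1.45, 1.32 and 1.53 RPKM and had log2 fold changes from -0.18 to 0.16. The median log2 fold change was 0.02 over the HoxA genes and -0.36 over the HoxB genes, a difference between clusters that was not tested. The HoxB median is the value of Hoxb3, which was at 0.0616 after quantile normalization. Both medians moved up under that scaling, to the value of Hoxa5 (0.150) for HoxA and of Hoxb5 (0.0576) for HoxB.

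The libraries of 1 age did not vary in the same way for all 26 genes. Infant replicate 2 was at 0.161 to 0.233 of the mean of infant replicates 1 and 3 for Foxf2, Foxp2, Tbx5 and Tbx4, at 0.320 for Hoxb6 and at 0.50 for Hoxb2. For the other 20 genes this ratio ran from 0.667 (Foxs1) to 1.53 (Foxf1). Beside these stand the fibroblast and mural sums, with the ratios of 0.309 and 0.324 given above. Among single fibroblast markers Pdgfra, a receptor of fibroblasts, was far lower in infant replicate 2 (87.2, 2.6 and 66.8 RPKM in infant replicates 1 to 3), while the collagen-binding proteoglycan Dcn was higher there (7.6, 19.9 and 8.0 RPKM). The part of fibroblasts and mural cells in the lower values of Tbx4, Tbx5, Foxf2, Hoxb2 and Hoxb6 was not tested.

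**Figure D4:**
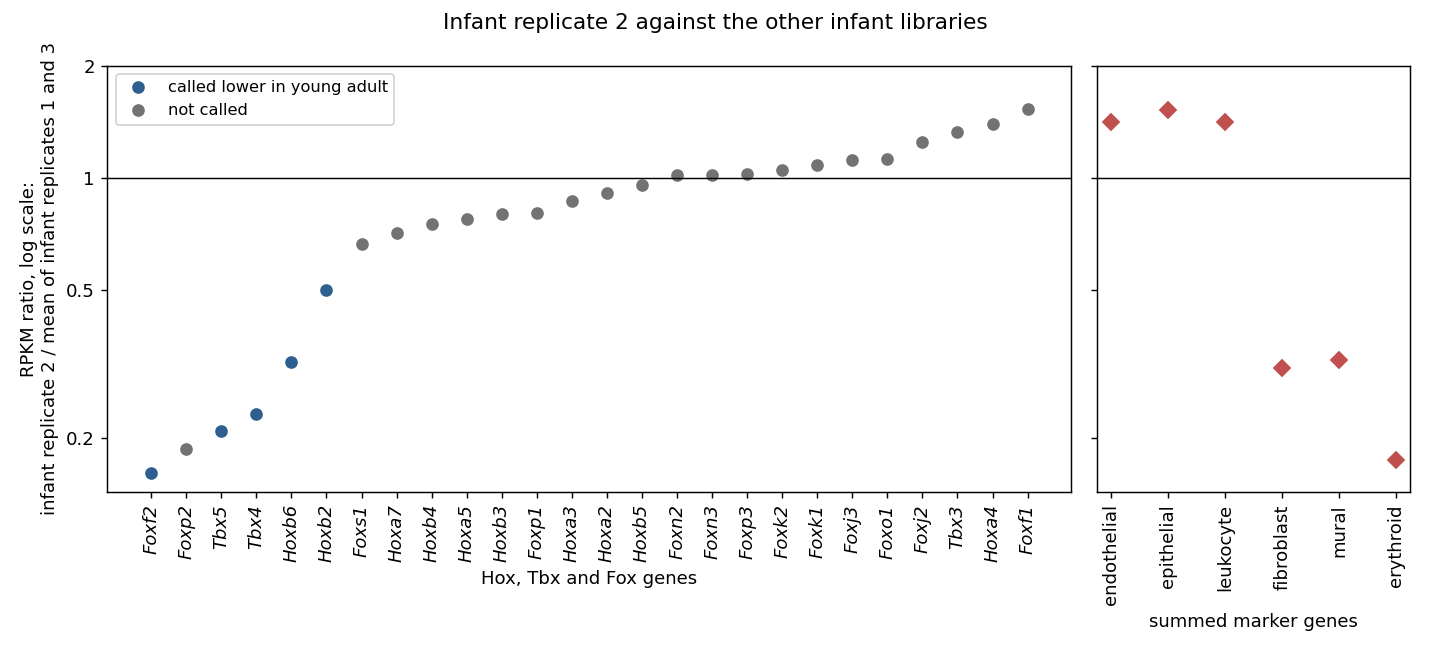
RPKM of infant replicate 2 divided by the mean of infant replicates 1 and 3, on a log axis, for the 26 genes (left, genes called lower in blue) and for the summed marker genes of 6 cell types (right). The 5 called genes lie between 0.161 and 0.50, the fibroblast and mural sums at 0.309 and 0.324, the erythroid sum at 0.175 and the EC sum at 1.41.

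The calls depended on which libraries were used. Without infant replicate 2, 7 of the 26 were called lower, Foxp2 and Foxs1 in addition to the 5, against 10.5% of all genes, and the log2 fold changes of Tbx5 and Tbx4 were -3.46 and -3.04. With infant replicate 2 as the only infant library, limma called 0 of the 26 against 1.6% of all genes lower, 8 were lower at an unadjusted p under 0.05 against 14.9% of all genes, and the log2 fold changes were -1.53 for Tbx5 (adjusted p 0.0706) and -1.21 for Tbx4 (adjusted p 0.0988), on the assumption that this lone library varies like the others. Over all alternatives the adjusted p ran from 8.66e-06 to 0.0706 for Tbx5 and from 1.37e-05 to 0.0988 for Tbx4. When 1 library was left out at a time, Tbx5 was called in 6 of 6 fits and Tbx4 in 5 of 6, the exception being the fit without young adult replicate 1 (adjusted p 0.0501). Foxf2, Hoxb2 and Hoxb6 were called in only 1 of these 6 fits, that without infant replicate 2. These 3 genes also lost their calls with a pseudocount of 5 and after quantile normalization, where Tbx4 and Tbx5 were called.

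Genes that act with, upstream or downstream of such factors were described by lists, whose counts stand beside the shares of all genes given above, 8.1% and 3.33% for calls and 25.4% and 15% at an unadjusted p under 0.05. Of the TALE homeodomain factors, some of which bind DNA with Hox proteins, 10 of 11 were in the table. Their median log2 fold change was -0.16. Of these 10, 2 were called lower and 0 higher (4 and 1 at an unadjusted p under 0.05). The 2 were Meis3, with 2.9, 0.5 and 2.0 RPKM at infant age against 0.0, 0.2 and 0.2 RPKM at young adult age (-1.20 ± 0.33, adjusted p 0.0339), and the repressor Tgif1, with 9.9, 9.2 and 12.1 RPKM against 4.5, 4.8 and 5.5 RPKM (-0.94 ± 0.12, adjusted p 0.00324). Meis3 shared the low value in infant replicate 2, at 0.204 of the others, and Tgif1 did not, at 0.836. The most abundant gene of this list, Meis1, had 79.8 to 100.4 RPKM in infant and 74.2 to 83.2 RPKM in young adult libraries (-0.14 ± 0.12, adjusted p 0.421).

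Of the Polycomb and Trithorax genes that silence or maintain Hox clusters, 23 of 26 were in the table, 1 was called lower and 1 higher (5 and 4 at an unadjusted p under 0.05), and the median log2 fold change was 0.03. Jarid2, which recruits Polycomb repressive complexes, had 13.1, 12.8 and 11.4 RPKM at infant age against 5.2, 5.9 and 6.2 RPKM at young adult age (-0.99 ± 0.10, adjusted p 0.00146). Cbx7, a chromobox protein that reads the Polycomb mark, had 1.3, 2.2 and 1.1 RPKM at infant age against 4.9, 5.6 and 5.8 RPKM at young adult age (1.37 ± 0.17, adjusted p 0.00253). Neither gene overlapped between the groups, and infant replicate 2 lay among or above the other infant libraries rather than far below them.

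Around Foxo1, 1 of 17 genes listed for the PI3K-AKT pathway was called lower and 0 higher (5 and 0 at an unadjusted p under 0.05), with a median log2 fold change of -0.16. The gene called was Pik3r2, a regulatory subunit of PI3K (4.5, 2.4 and 2.2 RPKM at infant age against 0.8, 1.0 and 1.3 RPKM at young adult age, -0.95 ± 0.22, adjusted p 0.0198), and its groups did not overlap. Of 16 FoxO target genes in the table, 1 was called lower and 1 higher (8 and 2 at an unadjusted p under 0.05), with a median of -0.20. Ccng2, which encodes a cyclin that slows the cell cycle, was lower (-0.95 ± 0.16, adjusted p 0.00768), and Txnip, a thioredoxin inhibitor that glucose also induces, was higher (1.19 ± 0.35, adjusted p 0.0416), with 158.7 to 358.6 RPKM in infant and 364.6 to 648.1 RPKM in young adult libraries.

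Targets of the forkhead factor FoxM1, which drives genes of mitosis, were the last list. Of 17 in the table, 11 were called lower and 0 higher (15 and 0 at an unadjusted p under 0.05), with a median log2 fold change of -1.04. The DNA topoisomerase gene Top2a had 8.9, 1.5 and 7.9 RPKM at infant age against 0.1, 0.2 and 0.1 RPKM at young adult age (-2.42 ± 0.47, adjusted p 0.0121), and the cyclin gene Ccnb2 had 7.3, 1.3 and 7.5 RPKM against 0.2, 0.1 and 0.2 RPKM (-2.23 ± 0.46, adjusted p 0.0145). Birc5, Ccnb1, Bub1b, Aurkb, Plk1, Cenpe, Cenpa, Kif20a and Bub1 were called lower as well, with log2 fold changes from -1.90 to -0.95. Infant replicate 2 was low here too, at a median of 0.245 of the other infant libraries over the list. FoxM1 itself was not analysed here.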

How the data were processed

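RNA of sorted lung EC was amplified from its poly(A) tails (SMARTer Ultra Low kit, which does not keep the strand) and sequenced as paired ends on a HiSeq2000. According to the study's methods and the labels, reads were aligned to mm10 with STAR, counted on RefSeq and tested with DESeq2, with versions not given in the sources used here. The deposited table held RPKM that the authors had computed per RefSeq transcript and rounded to 1 decimal, in 17241 rows. In 206 rows no library reached an RPKM of 1. RPKM totals were 362970 to 428155 per library. Depth is unknown, so counting error is not given. RPKM are relative to all RNA of a library, so abundant transcripts lower the others.

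Groups and replicate numbers were taken from the titles. For each of 12623 genes the row with the highest mean was used (6 of the 26 genes had more than 1 row), and 24 rows whose symbols a spreadsheet had turned into dates were restored. RPKM are not counts, so limma 3.58.1 in R 4.3.3 (lmFit, eBayes with an intensity trend, group as the only term) was fitted to log2(RPKM + 1) of the 12458 genes that reached an RPKM of 1 in any library, with Benjamini-Hochberg adjustment. A pseudocount of 1 understates the changes of low genes. The step was tested on simulated data. Called genes had an adjusted p under 0.05 and a log2 difference over 0.81, the study's 1.75-fold threshold carried over to log2(RPKM + 1). Samples are described as independent biological replicates. Tables and figures were made with Python 3.11.15.

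Genes named with full values were those called, the 3 most abundant of each family, Hoxa5, Hoxb5, Tbx3, Tbx4, Tbx5, Foxf1, Foxo1 and Foxp1, and called genes of the pathway lists. Other genes named were chosen after their values were seen. Some genes of these families and lists are not reported here. The 26 genes and all lists were chosen with earlier results of these data known. Positions, overlaps and promoters are from RefSeq and GENCODE annotations of GRCm38.p6, the assembly of mm10. Alternatives were pseudocounts of 0.1 and 5, no filter, mean RPKM of at least 1 as filter, other scalings (quantile, or totals without globin genes), no trend, array weights, a replicate block, other thresholds, the mean over transcript rows, leaving out each library, and infant replicate 2 as the only infant library.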

Additional observations from a re-analysis of the deposited data

How the results depend on the processing

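The number of the 26 genes called lower, 5 in the reported fit, was 2 with a pseudocount of 5, 3 of 21 with a filter on a mean RPKM of at least 1, which left 5 of the 26 untested (Foxp2, Foxs1, Hoxb2, Hoxb3 and Hoxb6), 2 after quantile normalization and 0 with infant replicate 2 as the only infant library. It was 7 with a pseudocount of 0.1 and with array weights. It was 6 with no filter, with totals without globin genes and with no trend, and 5 with the mean over transcript rows. It ran from 1 to 7 when 1 library was left out at a time. The lowest count came from leaving out young adult replicate 1, the highest from leaving out infant replicate 2, and the other 4 fits gave 2. The number called higher was 0 in all fits. The median log2 fold change of the 26, -0.12 as reported, was -0.051 with a pseudocount of 5, 0.0051 over the 21 genes that the filter on the mean left, 0.0596 after quantile normalization and -0.196 when the globin genes were left out of the library totals, and ran from -0.167 to -0.0756 when 1 library was left out. Quantile normalization moved the median of all genes from -0.07 to 0.04 and the share of lower among all calls from 70.9% to 53.5%. Over all genes, 1009 were called lower and 415 higher as reported, 338 and 240 with a pseudocount of 5, 611 and 532 after quantile normalization, and 199 and 44 with infant replicate 2 as the only infant library. Leaving out 1 library gave 515 to 1308 lower and 310 to 566 higher.

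The deviations of same-numbered libraries from their group means correlated at 0.028, -0.110 and -0.021, and those of differently numbered libraries at -0.122 to 0.111. Deviations centred within groups of 3 cannot decide whether same-numbered libraries shared a batch. With the replicate block 5 of the 26 were called lower and the median was -0.12. Hoxb6 lost its call (adjusted p 0.0530, range over all alternatives 0.00338 to 0.233) and Foxp2 gained one (0.0470, range 0.000502 to 0.322).

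Some of the named genes that were not called changed sign. Foxf1 was at -0.0445 with infant replicate 2 as the only infant library, Hoxb3 at 0.0616 after quantile normalization, and Foxp1, Hoxa5 and Hoxb5 at -0.0122, -0.0661 and -0.0933 without globin genes in the totals. With array weights Hoxa5 was at -0.0373 and Hoxb5 at -0.019. Leaving out 1 library gave -0.0097 to 0.199 for Foxp1, -0.0787 to 0.0872 for Hoxa5 and -0.162 to 0.164 for Hoxb5. The causes were not tested. With 3 libraries a group, unknown depth and values in steps of 0.1, differences of genes under 1 RPKM are imprecise.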
